A study of Homo sapiens with 32 samples.

Results

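The human mitochondrial genome is a circle of 16569 bases that carries 13 protein-coding genes, and 10 of them are described here: MT-ND1, MT-ND2, MT-ND4, MT-ND5 and MT-ND6 of complex I, MT-CYB of complex III, MT-CO1, MT-CO2 and MT-CO3 of complex IV, and MT-ATP6 of complex V. They were taken by symbol from a fixed list of names, and all 10 were found among the 19815 protein-coding genes and 60554 genes in all of both count tables. The 32 RNA-Seq libraries came in equal number from 2 breast lines, the non-tumourigenic epithelial line MCF10A and the triple-negative breast cancer line MDA-MB-231, so each line stands for a single source of cells. Within each line the 4 treatments were normoxia (N), hypoxia at 0.5% O2 for 24 hours (H), normoxia with PP242 at 2.5 µM for 3 hours (NPP) and hypoxia with PP242 (HPP). PP242 is an inhibitor of the mTOR kinase, which controls the translation of many cytosolic mRNAs. Total mRNA (T) and mRNA from the polysomes of a sucrose gradient (P) were sequenced from each treatment, with 2 replicates in each of 8 groups per line. No allele or transgene was part of the design. With 2 replicates, p-values measure the spread between these libraries only.

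Mitochondrial DNA is transcribed from both strands into long precursors, which are cut at the tRNAs that lie between most of the mRNAs. The mRNAs receive short poly(A) tails and are read inside the organelle by mitochondrial ribosomes, which are distinct from the ribosomes of the cytosol. Here the detergent lysate was cleared by centrifugation, and its supernatant was loaded on the gradient from which cytosolic polysomes were collected. Whether the total RNA was taken before or after that clearing is not given in the sources used here. The proteins they encode are core membrane subunits of oxidative phosphorylation, and all other subunits come from nuclear genes.

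Messages were selected by their poly(A) tails for sequencing. In 5 members the gene holds a whole stop codon (TAA in MT-ATP6 and MT-ND5, TAG in MT-CO2, AGA in MT-CO1 and AGG in MT-ND6). The other 5 end in T or TA, and the tail supplies the missing letters. The last 30 bases are shown for the mRNAs that lay at both ends of the range between total and polysomal RNA, and for MT-ND1, which ends in TA. They were read from GRCh38 on the coding strand, 5′ to 3′, and capitals mark the letters of the stop codon that the gene holds.
MT-CO2: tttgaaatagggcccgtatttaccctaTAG
MT-CO3: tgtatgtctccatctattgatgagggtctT
MT-ND5: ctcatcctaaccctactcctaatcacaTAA
MT-ND6: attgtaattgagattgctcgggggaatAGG
MT-ND1: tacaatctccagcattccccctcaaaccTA
MT-CO2 (chrM:7586-8269) and MT-CO3 (chrM:9207-9990) lie on the same strand with MT-ATP6 (chrM:8527-9207) between them, and MT-ATP6 and MT-CO3 share 1 base. MT-CO1 (chrM:5904-7445), MT-ND1 (chrM:3307-4262), MT-ND2 (chrM:4470-5511), MT-ND4 (chrM:10760-12137), MT-ND5 (chrM:12337-14148) and MT-CYB (chrM:14747-15887) are also on the plus strand. MT-ND6 (chrM:14149-14673) is the only member on the minus strand and lies directly after MT-ND5. None of these genes has an intron, and each is a single exon in the annotation. No strand was stated for the library kit, so reads from MT-ND6 and from RNA that runs past MT-ND5 on the opposite strand cannot be told apart. The MT-ND6 mRNA is also known for a short or absent poly(A) tail, and its values are uncertain for both reasons.

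Library totals ran from 18340916 to 46032327 counts with a median of 34561484, and the 10 members together held 127448 to 2704164 counts of a library. The lowest count of any single member in any library was 1214, so counting error was small beside the spread between replicates. Levels are given as CPM, that is, relative to the protein-coding counts of the library after TMM scaling within each line, so CPM values of the 2 lines are not on 1 scale unless stated. CA9, a marker of hypoxia, was at 7.72 to 26.9 CPM in the libraries of MCF10A labelled N or NPP and at 522 to 1356 CPM in those labelled H or HPP. In MDA-MB-231 it was at 0.0568 to 1.02 CPM and 13.0 to 34.6 CPM, so the oxygen labels held in all 32 libraries. Among basal keratins, KRT5 was at 1190 to 3268 CPM in MCF10A and at most 0.284 CPM in MDA-MB-231. KRT6A and KRT14 were also near 0 in MDA-MB-231 (at most 0.171 and 0.610 CPM). KRT17 was at 48.5 to 1034 CPM in MCF10A and at 0.858 to 6.36 CPM in MDA-MB-231. The basal marker LAMB3 was expressed in both lines, at 221 to 3341 CPM and 224 to 557 CPM. The mesenchymal markers did not separate the lines in 1 direction. VIM was at 1691 to 9370 CPM in MCF10A and 3113 to 6082 CPM in MDA-MB-231, ZEB1 and AXL were higher in MDA-MB-231, and FN1 was higher in MCF10A (1057 to 8617 against 77.0 to 283 CPM). The epithelial genes CDH1, EPCAM and TP63 were at most 0.361, 0.461 and 0.226 CPM in MCF10A, although epithelial cells usually express them, while EPCAM was at 9.86 to 19.1 CPM in MDA-MB-231 and CDH1 and TP63 were at most 0.568 CPM there, and SPARC, another mesenchymal marker, was at 91.7 to 203 CPM in MCF10A and at most 0.796 CPM in MDA-MB-231. Of the markers of other cell types, ADIPOQ was at 0 in every library, and PTPRC, HBB and PECAM1 were at most 1.14, 0.947 and 2.17 CPM.

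The mitochondrially encoded mRNAs took several percent of total mRNA and about 1 percent or less of polysomal mRNA. In MCF10A their share of all counts in T was 7.61% and 6.07% in N, 5.93% and 5.70% in H, 6.46% and 5.14% in NPP, and 4.87% and 4.59% in HPP (replicates 1 and 2). In P it was 0.883% and 0.734% in N, 1.04% and 0.458% in H, 0.610% and 1.09% in NPP, and 1.03% and 0.380% in HPP. No polysomal library of MCF10A reached the lowest total library, at 4.59%. In MDA-MB-231 the shares in T were 4.62% and 5.16% in N, 4.82% and 7.27% in H, 4.60% and 5.64% in NPP, and 5.61% and 5.70% in HPP. Those in P were 0.521% and 0.941% in N, 0.542% and 0.859% in H, 0.544% and 1.00% in NPP, and 0.572% and 0.991% in HPP. Again the fractions did not overlap, and the second replicate had the higher share in all 4 treatments of this line in both fractions. Within a culture, taken as the T and P libraries that share a number, the share in T was 4.70 to 12.4 times that in P in MCF10A and 5.48 to 9.81 times in MDA-MB-231. These shares are relative within each fraction, and in bulk RNA fewer cells of a type and less RNA per cell cannot be told apart.

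**Figure D1:**
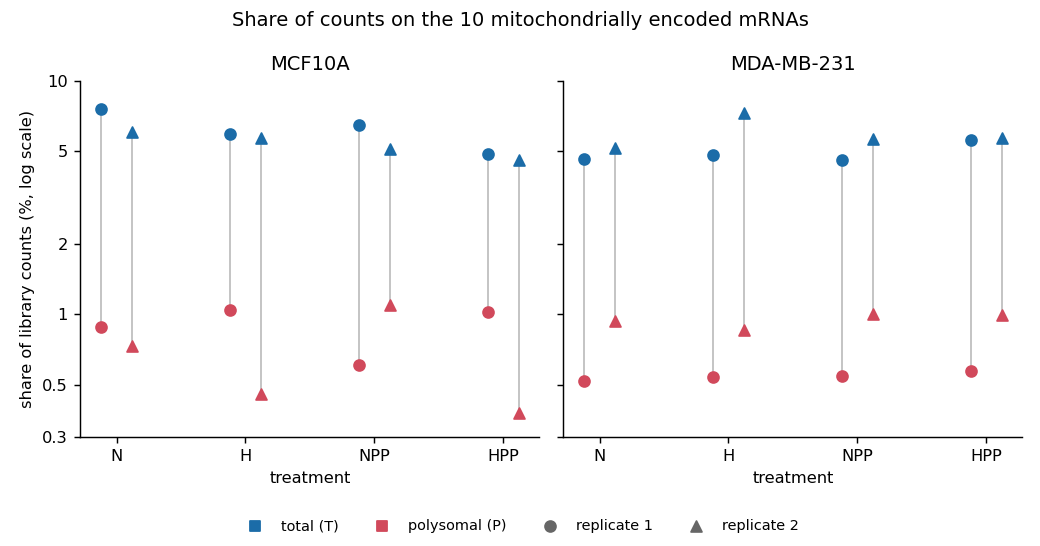
Share of library counts (%, log axis) on the 10 mitochondrially encoded mRNAs in each of the 32 libraries, by treatment, fraction (colour) and replicate (shape), with grey lines joining the T and P libraries of 1 culture. All 16 total libraries lie at 4.59% or more and all 16 polysomal libraries at 1.09% or less.

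The polysomal replicates of MCF10A stood further apart than the total ones. As the difference in log2 CPM, replicate 2 minus replicate 1, the 10 members ran from −2.18 (MT-ND6) to −0.57 (MT-ND4) in H and from −1.96 to −0.75 in HPP, so all 10 were lower in the second replicate. In NPP they ran from −0.01 (MT-ATP6) to 1.54 (MT-ND5), and in N from −1.31 (MT-CO2) to 0.90 (MT-ND5). In the total libraries of MCF10A the range over all treatments was −1.11 to 0.59. MDA-MB-231 differed in pattern, since 39 of the 40 polysomal differences were above 0, at 0.27 to 1.58, with MT-ND4 in H at −0.08. In T of MDA-MB-231 36 of 40 differences were also above 0 (−0.18 to 1.19), while in T of MCF10A 16 of 40 were. The common biological coefficient of variation over all genes was 0.325 for MCF10A against 0.15 for MDA-MB-231.

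**Figure D2:**
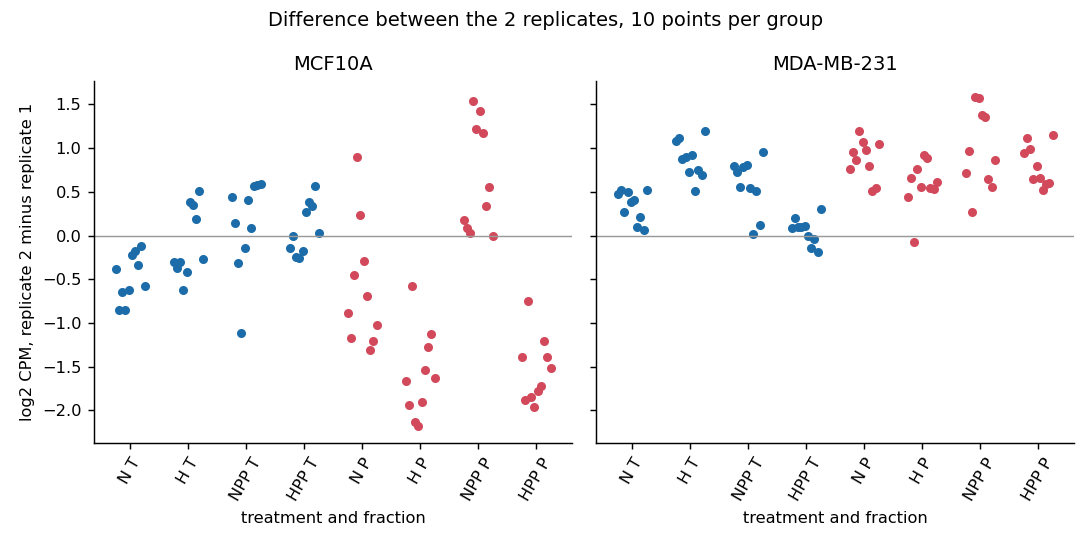
Difference in log2 CPM between replicate 2 and replicate 1 for each of the 10 mRNAs (points) in each group of treatment and fraction, with T in blue and P in red. Polysomal differences in MCF10A reach −2.18 in H and 1.54 in NPP, while those in MDA-MB-231 are above 0 except 1 of 40.

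Polysomal RNA was compared with total RNA within each treatment by edgeR's quasi-likelihood test with Benjamini-Hochberg adjustment over all genes tested (13124 of them for MCF10A, 13510 for MDA-MB-231). In MDA-MB-231 the mitochondrially encoded mRNAs were lower in P in every treatment. At an adjusted p under 0.05, 9 of 10 fell in N against a background of 8.64% of all genes called lower, 9 of 10 in H against 2.93%, 8 of 10 in NPP against 6.37% and 10 of 10 in HPP against 6.95%. The median log2 fold change (log2FC) over the members was −2.59 in N, −3.17 in H, −2.83 in NPP and −2.79 in HPP, while that of all genes was between −0.03 and 0.04. The members not called were MT-ND5 in N (log2FC −1.51 ± 0.49 SE, edgeR adjusted p = 0.0568), in H (−1.90, 0.0511) and in NPP (−1.29, 0.128), and MT-ND6 in NPP (−1.57, 0.0568). With a block for culture, which pairs the T and P libraries that share a number, all 4 of these were called and the count was 10 of 10 in each treatment, with edgeR adjusted p of 0.0014, 0.00112 and 0.00289 for MT-ND5 in N, H and NPP and 0.00108 for MT-ND6. Under that block 9.9%, 4.58%, 7.59% and 8.02% of all genes were called lower in N, H, NPP and HPP. Without the first polysomal replicate of H or of NPP fewer members were called in that treatment. Such a fit leaves 1 library in a group, and its share of all genes called is not given here.

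In MCF10A the same contrasts gave medians of −2.65 in N, −2.47 in H, −2.84 in NPP and −2.62 in HPP, and all 10 members were lower in each. No member passed the adjusted threshold in edgeR, and none did with the block for culture. With a replicate block within each fraction, 8, 7, 1 and 5 members were called lower in N, H, NPP and HPP, where 3.97%, 1.48%, 0.0229% and 0.648% of all genes were. Without a block the background was also 0% of genes in N, 0% in H, 0.00762% in NPP and 0.0152% in HPP, so almost no gene was called between fractions in single treatments of this line. At an unadjusted p under 0.05, 10, 10, 9 and 10 members were lower in N, H, NPP and HPP, where 3.99%, 4.53%, 8.15% and 7.07% of all genes were. DESeq2 called 10, 8, 8 and 9 members lower at an adjusted p under 0.05, against 0.168%, 0.762%, 4.08% and 3.05% of genes.

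The contrast averaged over the 4 treatments, which was added after the data were seen, used all 16 libraries of a line. It placed all 10 members lower in P in both lines (edgeR, adjusted p under 0.05), where the background called lower was 9.49% of all genes for MCF10A and 22.1% for MDA-MB-231. Of 27 alternatives per line, those that kept all 16 libraries also gave 10 of 10. In the 16 that left out 1 library each, all 10 members stayed lower in P. An adjusted p under 0.10 and an absolute log2FC of at least 1 were applied to the main fit itself and are not separate fits. The former could not give fewer members. The shares of all genes called in the alternatives are not given here.

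The cytochrome c oxidase subunits MT-CO2 and MT-CO3 had the largest deficits among the members. MT-CO2, which carries the copper site that accepts electrons from cytochrome c, was at 7659 to 13599 CPM in the 8 total libraries of MCF10A (median 9211) and at 395 to 1664 CPM in the 8 polysomal ones (median 844). Its averaged log2FC was −3.51 ± 0.29 (SE), 11.4-fold lower, with an adjusted p of 0.000121 in edgeR, and only 2 of the 13124 genes lay below it. In MDA-MB-231 MT-CO2 was at 4530 to 9378 CPM in T (median 6190) and at 387 to 655 CPM in P (median 519), a log2FC of −3.57 ± 0.16 and 11.9-fold lower (adjusted p = 4.22e-09, edgeR). MT-CO3, a structural subunit of the same enzyme, was next in order in both lines. It was at 4567 to 10150 CPM in T and 233 to 1309 CPM in P in MCF10A (log2FC −3.50 ± 0.30), and at 7553 to 12196 CPM in T and 560 to 995 CPM in P in MDA-MB-231 (log2FC −3.49 ± 0.15). The total and polysomal ranges of both mRNAs were apart in both lines, with the lowest total library 3.49 to 7.59 times the highest polysomal one.

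MT-CO1, the catalytic subunit of complex IV, was at 15182 to 23850 CPM in T (median 20931) and 895 to 3918 CPM in P (median 2594) in MCF10A, a log2FC of −3.04 ± 0.33. In MDA-MB-231 it was at 12449 to 18338 CPM in T and 1276 to 3263 CPM in P, a log2FC of −2.83 ± 0.20. MT-ATP6, part of the proton channel of ATP synthase, was at −2.79 ± 0.31 in MCF10A and −2.92 ± 0.25 in MDA-MB-231, and MT-CYB, the cytochrome b of complex III, was at −2.54 ± 0.35 and −2.57 ± 0.23. MT-ND1, MT-ND2 and MT-ND4, which belong to the membrane arm of complex I, were at −2.47 ± 0.28, −2.61 ± 0.35 and −2.59 ± 0.19 in MCF10A and at −2.81 ± 0.21, −2.85 ± 0.24 and −2.80 ± 0.18 in MDA-MB-231. These 5 mRNAs thus lay close together, and the order among them was not tested.

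Averaged over the 4 treatments, MT-ND5 and MT-ND6, also of the membrane arm, had the smallest deficits in both lines. The order differed in N of MCF10A, where MT-ND1 had the smallest deficit. There MT-ND1 had means of 1190 CPM in T and 231 CPM in P, against 1966 and 306 CPM for MT-ND5. MT-ND5 was at 830 to 2839 CPM in T (median 1744) and 165 to 1031 CPM in P (median 318) in MCF10A. This was the only member and line in which the fractions overlapped, since the first polysomal replicate of H, at 1031 CPM, lay above the second total replicate of NPP, at 830 CPM. Its averaged log2FC was −2.03 ± 0.40 in MCF10A, 4.08-fold lower (edgeR adjusted p = 0.00622), and −1.63 ± 0.25 in MDA-MB-231, 3.10-fold lower (edgeR adjusted p = 0.00014). MT-ND6 was at 618 to 1244 CPM in T and 75.9 to 493 CPM in P in MCF10A (log2FC −2.08 ± 0.36), and at 199 to 577 CPM in T and 46.3 to 141 CPM in P in MDA-MB-231 (−1.76 ± 0.24).

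**Figure D3:**
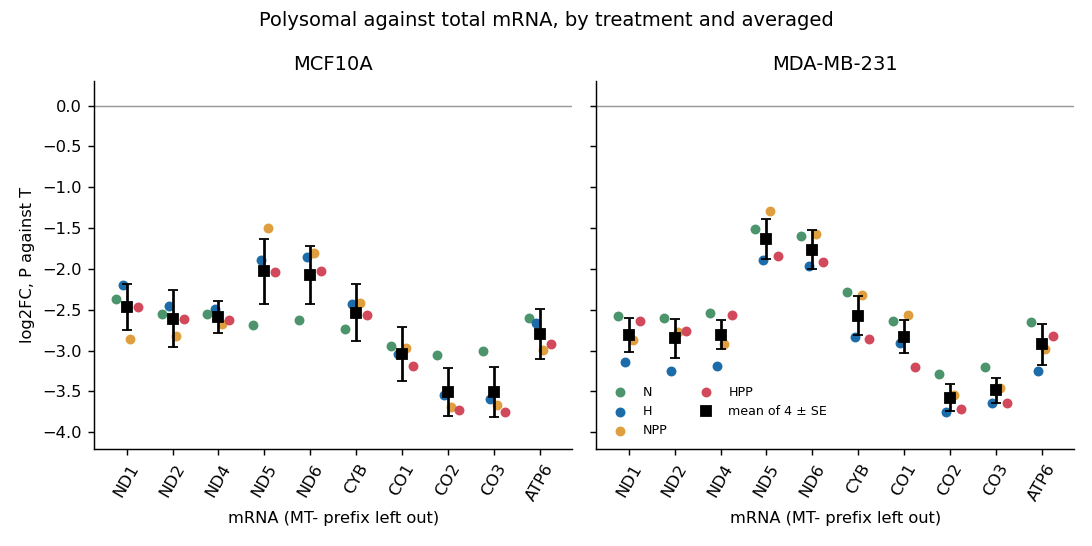
Log2FC of polysomal against total mRNA for each of the 10 mRNAs in each treatment (coloured points) and averaged over the 4 treatments (black squares, bars ± SE of the fit). Among the averages, MT-CO2 and MT-CO3 lie near −3.5 in both lines, and MT-ND5 and MT-ND6 between −2.08 and −1.63, while the points of single treatments spread more widely, from −3.76 to −1.29 in MDA-MB-231.

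By the medians over the libraries of each fraction, the make-up of the members' counts shifted between the fractions in the same order. The median of MT-CO2 went from 15.5% of the members' counts in T to 9.82% in P for MCF10A, and from 11.3% to 7.47% for MDA-MB-231. MT-CO3 went from 11.7% to 7.41% and from 15.3% to 10.6%. The median share of MT-ND5 was higher in P, at 5.57% against 3.06% in T for MCF10A and 4.51% against 1.82% for MDA-MB-231. The first normoxic culture of MCF10A went the other way for MT-ND5 (3.58% in T and 1.93% in P) and MT-CO3 (11.1% and 11.8%). Its MT-CO2 was nearly level (15.3% and 15.1%), and no other culture went against the medians for these mRNAs. By the median, MT-CO1 held the largest share of the members' counts in both fractions, although MT-ND4 held more in 5 of 16 polysomal libraries. The medians of MT-CO1 in T and P were 34.2% and 29.9% for MCF10A, and 25.7% and 25.9% for MDA-MB-231.

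Other RNAs that cytosolic ribosomes do not read were compared in a fit that kept genes of every class. The nuclear RNA NEAT1 was at log2FC −2.70 to −2.09 in P against T over the treatments of MCF10A (0 of 4 called by edgeR, adjusted p = 0.189 to 0.269) and at −2.19 to −2.12 in MDA-MB-231 (4 of 4 called lower). MALAT1, another nuclear RNA, was at −1.73 to −1.36 in MCF10A (0 of 4) and −1.70 to −1.22 in MDA-MB-231 (4 of 4). The mitochondrial 12S rRNA, MT-RNR1, was at −4.28 to −3.33 in MCF10A (3 of 4 called lower) and −4.58 to −4.06 in MDA-MB-231 (4 of 4). The 16S rRNA, MT-RNR2, was at −4.12 to −3.28 (3 of 4) and −3.97 to −3.55 (4 of 4). By averages over the treatments in this fit, 8 of the 10 members lay below NEAT1 (−2.37 ± 0.41 SE in MCF10A and −2.15 ± 0.16 in MDA-MB-231) and all 10 lay below MALAT1 (−1.53 ± 0.57 and −1.45 ± 0.18) in both lines. MT-ND5 (−1.93 in MCF10A and −1.59 in MDA-MB-231) and MT-ND6 (−1.98 and −1.73) had values above NEAT1. Of 5 abundant mRNAs that cytosolic ribosomes read, ACTB, PPIA, TUBA1B and GAPDH were higher in both polysomal libraries than in both total libraries of N in each line. GAPDH was at 4811 and 5841 CPM in T and 16851 and 7666 CPM in P for MCF10A, and at 3307 and 3618 against 5289 and 4758 CPM for MDA-MB-231. EEF1A1, the fifth, was at 12717 and 14638 CPM in T and 12545 and 9885 CPM in P of N for MCF10A, and at 12208 and 13169 against 13556 and 13550 CPM for MDA-MB-231. With PP242 these orders changed for some. GAPDH was at 2561 and 2262 CPM in P against 3397 and 3201 CPM in T in NPP of MDA-MB-231, and was also lower in both polysomal libraries than in both total ones in HPP of both lines. In NPP EEF1A1 was lower in P, at 3352 and 3816 against 14811 and 28941 CPM in T for MCF10A, and at 5557 and 6357 against 16392 and 15679 CPM for MDA-MB-231. The differences between these groups of RNAs were not tested.

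Levels between genes were compared per length, as CPM per kb of gene, in total RNA of normoxic cells (mean ± SD, n = 2). In MCF10A the order was MT-CO1 (14562 ± 1279), MT-CO2 (14157 ± 2292), MT-CO3 (9623 ± 570), MT-ND4 (6275 ± 1948), MT-CYB (5061 ± 544), MT-ATP6 (4957 ± 1392), MT-ND2 (1782 ± 721), MT-ND6 (1633 ± 491), MT-ND1 (1245 ± 234) and MT-ND5 (1085 ± 439). Taking means whose ranges of 1 SD overlap as not separated, MT-CO1 and MT-CO2 were not separated, nor were MT-ND4, MT-CYB and MT-ATP6, nor the last 4. In MDA-MB-231 the order was MT-CO3 (9870 ± 312), MT-CO1 (8340 ± 377), MT-CO2 (7152 ± 749), MT-ATP6 (7082 ± 1796), MT-ND4 (6842 ± 906), MT-ND2 (3870 ± 973), MT-CYB (2551 ± 505), MT-ND1 (1859 ± 428), MT-ND6 (475 ± 89.9) and MT-ND5 (422 ± 101.4). Here MT-CO3 was above all others by this measure. MT-ATP6 was not separated from MT-CO1, MT-CO2 or MT-ND4, nor MT-CO2 from MT-ND4, MT-CYB was not separated from MT-ND2 or MT-ND1, and MT-ND6 was not separated from MT-ND5.

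**Figure D4:**
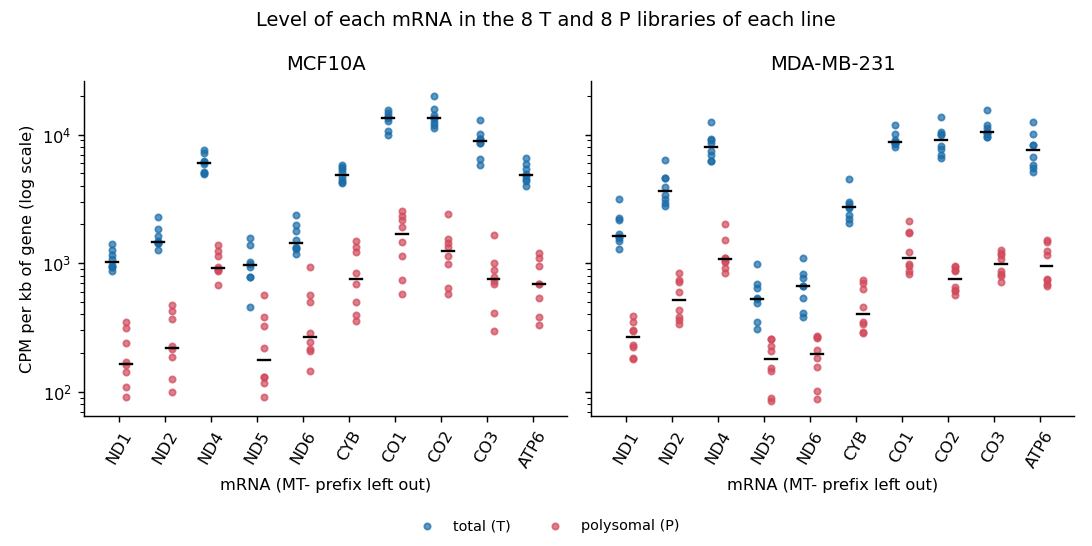
Level of each mRNA as CPM per kb of gene (log axis) in the 8 total and 8 polysomal libraries of each line, 1 point per library, with black bars at the medians. By the medians in total RNA the complex IV subunits are highest, although points of MT-ND4 and MT-ATP6 overlap those of MT-CO3 in both lines, and MT-ND5 and MT-ND1 or MT-ND6 are lowest.

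In normoxic total RNA, 3 of the 10 members were lower in MDA-MB-231 than in MCF10A by a joint fit of all 32 libraries (edgeR, adjusted p under 0.05). The libraries of each line formed a set of their own with their own barcode series. By the paper's methods, MCF10A medium also held EGF, hydrocortisone, cholera toxin and insulin, which are not listed for MDA-MB-231. Line, library set and medium thus cannot be told apart in any comparison of the lines. Of the 14298 genes tested, 20.5% were called lower and 40.7% were called in either direction, so the members' count was not far from the background. On the scale of this fit, with TMM over both lines, MT-ND6 was at 1220 and 798 CPM in MCF10A and at 188 and 237 CPM in MDA-MB-231, a log2FC of −2.25 ± 0.64 (adjusted p = 0.00762, edgeR). MT-CO2 was at 12666 and 10135 CPM against 3933 and 4396 CPM (−1.45 ± 0.45, adjusted p = 0.0131, edgeR), and MT-ND5 at 2968 and 1659 CPM against 552 and 749 CPM (−1.83 ± 0.70, adjusted p = 0.042, edgeR). The replicates of the lines did not overlap for any of these 3. MT-CYB (−1.46, adjusted p = 0.06) and MT-CO1 (−1.27, 0.0655) missed the threshold in edgeR, and MT-ND2 (0.65), MT-ND1 (0.11) and MT-ATP6 (0.04) had higher values in MDA-MB-231 without passing it. The size of these differences depended on the scaling. Without TMM the median over all genes was 0.30 in place of −0.03, and the members moved with it, to −1.12 for MT-CO2, 0.98 for MT-ND2, 0.44 for MT-ND1 and 0.38 for MT-ATP6. The count of 3 called lower was 2 without TMM and 4 with DESeq2, where 13.9% and 18.9% of all genes were called lower, and 5 at an adjusted p under 0.10, where 24.3% were. It was 6 with the replicate block and 5 with the block within each fraction, against 19.5% and 23.3%, and with only the libraries compared 6 were lower and 1 was higher, against 30.1% and 32.3%. The count fell without the first MCF10A replicate and without either MDA-MB-231 replicate. These fits leave 1 library in a group, and their shares of all genes called are not given here. For the deficit in P against T in normoxia, edgeR called 0 of 10 members as different between the lines (background 0.00699%, 0 members at an unadjusted p under 0.05, and 0 by DESeq2). The largest line differences there were MT-ND5 at 1.31 ± 0.97 and MT-ND6 at 1.17 ± 0.87.

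Treatments were compared with normoxia within T and within P. In total RNA, hypoxia called 0 of 10 members in either line by edgeR, where 1.54% of all genes were called in MCF10A and 1.27% in MDA-MB-231. In MCF10A the member median was −0.06, with a range from −0.30 (MT-CO3) to 0.34 (MT-ND6). In MDA-MB-231 all 10 members had a positive log2FC in H without passing the test, with a median of 0.40. With no filter the count called in that line was not 0, as listed under the dependence on processing. MT-CO2 was at 4530 and 5254 CPM in N and at 5562 and 9378 CPM in H, a log2FC of 0.61 ± 0.30 (edgeR adjusted p = 0.418). MT-ND6 was at 216 and 283 CPM in N and 349 and 577 CPM in H (0.89 ± 0.46, edgeR adjusted p = 0.450), and MT-ND5 at 635 and 895 CPM in N and 963 and 1795 CPM in H (0.85 ± 0.49, edgeR adjusted p = 0.514). The H replicates of all 3 lay above those of N, and the second H replicate, whose share on the members was 7.27%, was the highest each time. In every other member the replicates of N and H overlapped. The first H replicate of MT-ND1, at 1423 CPM, lay below both N replicates, at 1488 and 2067 CPM. The same held for MT-ND2, MT-CO3 and MT-ATP6. The share of all genes without overlap is not given here. In the same contrast, 4 of 9 hypoxia-linked genes tested rose in MCF10A and 4 of 8 in MDA-MB-231, against backgrounds of 1.39% and 0.977% of genes called higher. BNIP3, a mitophagy receptor, rose by 2.54 ± 0.36 in MCF10A and 2.64 ± 0.16 in MDA-MB-231 on the log2 scale (edgeR adjusted p = 0.00439 and 8.88e-07).

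PP242 in normoxia also called 0 of 10 members in T by edgeR, with backgrounds of 0.648% in MCF10A and 0.555% in MDA-MB-231 and member medians of −0.10 and 0.08. Hypoxia with PP242 changed far more of the transcriptome, with 14.9% and 13.2% of all genes called in T, and again 0 of 10 members. For MDA-MB-231 that count was 2 with a replicate block (MT-ND6 and MT-CO2, both higher in HPP), 3 with the block within each fraction (also MT-ND5) and 4 with only the libraries compared, where 8.82%, 9.14% and 8.37% of all genes were called higher. In MCF10A all 10 members were lower in HPP without passing the test (median −0.25, lowest MT-ND1 at −0.44 ± 0.53, edgeR adjusted p = 0.646). In MDA-MB-231 the median was 0.20, and the highest values were MT-ND6 at 0.75 ± 0.46 (edgeR adjusted p = 0.301), MT-ND5 at 0.65 ± 0.48 and MT-CO2 at 0.52 ± 0.30 (edgeR adjusted p = 0.270). Adding PP242 to hypoxia called 0 members, where 3.74% and 3.78% of all genes were called, and all 10 were lower in both lines with medians of −0.16 and −0.18.

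In polysomal RNA edgeR also called 0 of 10 members in each line and contrast. The count was not 0 for HPP of MCF10A with a replicate block within each fraction. Nor was it 0 for HPP against H of MDA-MB-231 with no filter, as listed under the dependence on processing. The backgrounds were 1.49% and 2.29% of genes for H, 0.823% and 1.95% for NPP, 22.2% and 19.4% for HPP, and 6.5% and 11.5% for HPP against H, in MCF10A and MDA-MB-231 respectively. Standard errors in MCF10A were 0.36 for MT-ND4 and 0.53 to 0.78 for the rest. MT-CO3 in MCF10A was at 1309 and 568 CPM in N and at 613 and 233 CPM in HPP (log2FC −1.15 ± 0.55, edgeR adjusted p = 0.158), the lowest adjusted p of any member in a treatment comparison. MT-ND6 was at 128 and 151 CPM in N and at 493 and 108.7 CPM in H (1.11 ± 0.69, edgeR adjusted p = 0.594), so the H replicates fell on both sides of N. In MDA-MB-231 the members ran from −0.48 (MT-CYB) to 0.44 (MT-ND6) in HPP, with a median of −0.16.

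The change in the difference between fractions, that is, the log2FC of a treatment in P minus that in T, was tested as an interaction. For mRNAs that cytosolic ribosomes read it is a change in translational efficiency, which it does not measure for the members. It called 0 of 10 members in all 6 contrasts, with backgrounds for H, NPP and HPP of 0%, 0% and 0% of genes in MCF10A, while those of MDA-MB-231 were 0.0148%, 0.34% and 0.696%. All 10 members had negative values of this change in H (median −0.51) and in HPP (median −0.32) of MDA-MB-231, and edgeR adjusted p-values were 0.977 or higher in all 6. Over the 22 treatment contrasts within a line, 0 members passed an unadjusted p of 0.05 in edgeR, where 0.175% to 36.2% of all genes did, and DESeq2 called 0. The contrasts with normoxia share the N libraries, and HPP against H uses the H and HPP libraries of other contrasts. The treatment contrasts are thus not independent of each other. Tests of the line difference in each treatment response called 0 members in T (backgrounds 0.266% for H, 0.056% for NPP and 3.31% for HPP) and 0 in P (0.329%, 0.126% and 3.6%), with 0 at an unadjusted p under 0.05 and 0 by DESeq2.

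Some nuclear genes for subunits of complexes I and III to V, to which the members belong, fell under HPP in polysomal RNA, while complex II has nuclear subunits only. In MCF10A the share that fell was below the background for complexes I and II and above it for the other three, and in MDA-MB-231 it was above the background except in complex II. In MCF10A, 3 of 37 complex I, 0 of 4 complex II, 2 of 9 complex III, 2 of 11 complex IV and 6 of 15 complex V genes fell in P against a background of 11.9% of genes called lower (edgeR, adjusted p under 0.05), with medians of −0.996, −0.40, −1.07, −1.25 and −1.25. The 10 members had a median of −0.37 in that contrast. In MDA-MB-231, 17 of 37, 0 of 4, 4 of 9, 4 of 11 and 9 of 15 fell against a background of 9.73%, with medians of −0.58, −0.20, −0.55, −0.52 and −0.61, beside −0.16 for the members. No nuclear subunit rose in either line. ATP5G2, a gene for the c subunit of ATP synthase, fell by 2.57 ± 0.54 in MCF10A and by 1.46 ± 0.18 in MDA-MB-231 (edgeR adjusted p = 0.00683 and 9.7e-05). COX5A of complex IV fell by 2.40 ± 0.50 and 1.17 ± 0.19, and UQCRB of complex III by 2.50 ± 0.48 and 1.00 ± 0.22. In total RNA, 0 of these 76 genes fell in MCF10A and 1 did in MDA-MB-231 (ATP5G1, by 0.71). The summed count in P, 13 of 76 in MCF10A, fell without either HPP replicate or the first N replicate and rose without the second N replicate. The 34 of 76 in MDA-MB-231 fell without either HPP replicate or the first N replicate. These fits leave 1 library in a group, and their shares of all genes called are not given here. The difference between nuclear and mitochondrial genes was not tested. In MCF10A 4 of 6 basal epithelial markers tested also rose under HPP (KRT14 by 2.28 ± 0.46 in P, edgeR adjusted p = 0.00525, where 10.2% of genes were called higher), as did the endothelial marker PECAM1, at 1.81 CPM or less, by 2.45 ± 0.67, and their part in these results was not tested.

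**Figure D5:**
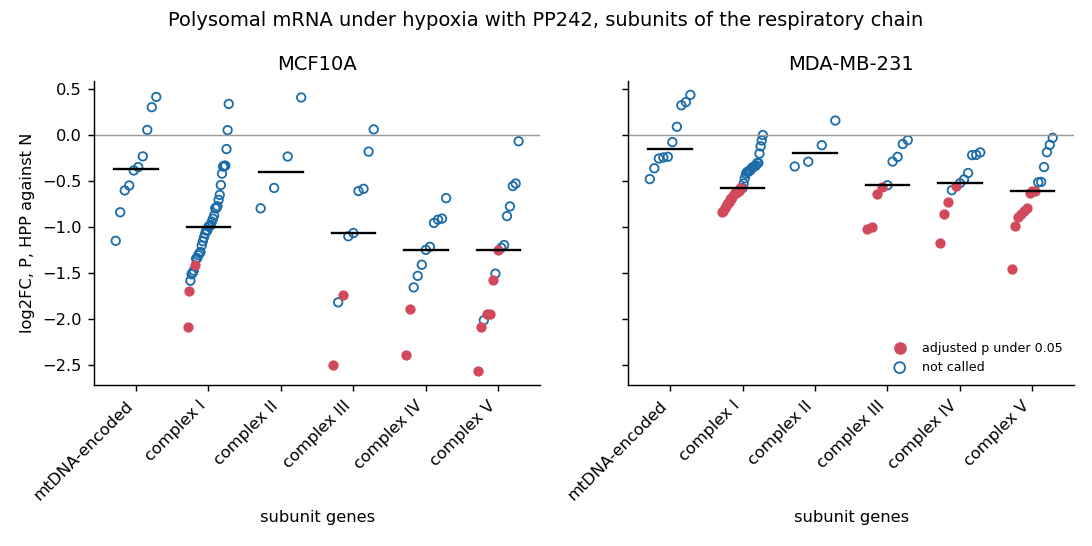
Log2FC in polysomal RNA under hypoxia with PP242 against normoxia for the 10 mitochondrially encoded mRNAs and for nuclear-encoded subunits of each complex, 1 point per gene, filled red where the edgeR adjusted p was under 0.05, with bars at the medians. No mitochondrially encoded mRNA is filled, and the filled nuclear genes all lie below 0.

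In normoxic MDA-MB-231, 22 of the 76 nuclear subunits were called higher in P than in T and 7 were called lower. With the block for culture these counts were 9 and 8, where 3.58% of all genes were called higher and 9.9% lower. Without the block, of complex I genes 11 rose and 2 fell, of complex II 3 rose, of complex III 2 rose and 2 fell, of complex IV 1 rose and 1 fell, and of complex V 5 rose and 2 fell, where 4.42% of all genes were called higher and 8.64% lower (edgeR, adjusted p under 0.05). NDUFA13 of complex I was higher in P by 0.92 ± 0.19 and SDHC of complex II by 0.54 ± 0.13. The genes for the small subunits UQCR11 and ATP5E were lower, with log2FC of −1.90 ± 0.21 and −1.96 ± 0.22, values that lay above most members but below MT-ND5 at −1.51 and MT-ND6 at −1.60. In MCF10A 0 of 76 were called (no gene was), and the medians were 0.99 for complex I, 1.15 for complex IV and 0.87 for complex V. Those of complexes II and III, which have fewer genes, are not given here.

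Factors that copy, transcribe and process mitochondrial RNA are nuclear-encoded, and part of them fell in total RNA under HPP. In MCF10A 4 of 16 genes of mtDNA transcription and replication, 7 of 21 of mitochondrial RNA processing and 0 of 13 mitochondrial translation factors fell, where 7.47% of all genes were called lower (edgeR, adjusted p under 0.05). With a replicate block within each fraction the 11 called lower in MCF10A became 18, where 14.9% of all genes were called lower. In MDA-MB-231 the counts were 2, 9 and 3, against 6.91%. POLRMT, the mitochondrial RNA polymerase, fell by 1.19 ± 0.29 in MCF10A, and PNPT1, which takes part in mitochondrial RNA turnover, fell by 1.84 ± 0.35 in MCF10A and 0.92 ± 0.13 in MDA-MB-231 (edgeR adjusted p = 0.00496 and 0.000706). MTERF3, a negative regulator of mtDNA transcription, fell by 1.28 ± 0.25 and 0.91 ± 0.18, and FASTKD5, needed for processing messages without a flanking tRNA, by 1.54 ± 0.26 and 0.67 ± 0.18. Of 7 regulators of mitochondrial biogenesis, PPARGC1B, PPRC1 and NRF1 fell in both lines, PPRC1 by 3.06 ± 0.32 and 1.18 ± 0.17. The summed count of factors, 11 of 50 in MCF10A and 14 of 50 in MDA-MB-231, fell when any 1 of the 4 libraries compared was left out. The shares of all genes called in those fits are not given here. The members themselves had medians of −0.25 and 0.20 in the same contrasts.

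In P under HPP the factor counts were 4, 7 and 3 for MCF10A, and 2, 8 and 5 for MDA-MB-231, where 11.9% and 9.73% of all genes were called lower (edgeR, adjusted p under 0.05). In the latter POLG, the mtDNA polymerase, rose by 0.57 ± 0.18 on the log2 scale. The sums of factors called lower, 14 and 15, were smaller in both lines without either HPP replicate or the first N replicate. The shares of all genes called in those fits are not given here. TACO1, which activates translation of the MT-CO1 message, fell in P by 1.48 ± 0.37 in MCF10A and 0.89 ± 0.17 in MDA-MB-231 (edgeR adjusted p = 0.0162 and 0.00327). MT-CO1 itself was at 3600 and 2236 CPM in N and 2951 and 895 CPM in HPP in MCF10A (log2FC −0.60 ± 0.61), and at 1510 and 2632 CPM in N and 1328 and 1898 CPM in HPP in MDA-MB-231 (−0.36 ± 0.38). Neither contrast passed the test, and the replicates of N and HPP overlapped in both lines.

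Genes most like the members across libraries were named by the lower of 2 correlations, 1 per line over 16 libraries, with the members' mean log2 CPM among 12364 genes tested in both lines. They were MT-ATP8 (r = 0.990 in MCF10A and 0.992 in MDA-MB-231), C12orf75 (0.983 and 0.975), VTI1B (0.964 and 0.970), COMMD6 (0.963 and 0.964) and C7orf73 (0.976 and 0.961). The points share their libraries and the step between T and P, and these values are a description. Nuclear copies of mitochondrial genes can take reads from their originals. Among 297 such copies, 6 had 300 counts or more, and MTATP6P1 held 10.7% to 11.8% of the reads counted on MT-ATP6 and its copies in MCF10A and 11.9% to 13.8% in MDA-MB-231. For MT-ND2 the copies held 1.47% to 2.69% and for MT-CO1 0.784% to 2.38%, while for the other members they held less than 0.1%.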

How the data were processed

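Total and polysomal mRNA of 32 libraries was measured by RNA-Seq. Cells were lysed with detergents and cycloheximide, the lysate was cleared by centrifugation, and polysomes were taken from a sucrose gradient of the supernatant. The authors prepared poly(A)-selected libraries with no strand protocol stated, mapped the reads with STAR and ran RSEM, whose expected counts of each gene were deposited as whole numbers with no normalisation. The study's methods name GRCh38 and GENCODE annotation, while the submitters' processing notes name GRCh37. RSEM shares reads among similar genes, so genes with nuclear copies are uncertain.

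From these counts, protein-coding genes were kept (97.4% to 99.2% of each library), low counts were removed by filterByExpr, and libraries were scaled by TMM in edgeR 4.0.16 (R 4.3.3, limma 3.58.1). Each line was fitted over 16 libraries in 8 groups (8 residual degrees of freedom), and the quasi-likelihood F test was used for contrasts, with Benjamini-Hochberg adjustment over the genes tested and a threshold of 0.05, in 38 comparisons. Line differences came from a joint fit of 32 libraries. DESeq2 1.42.0, other filters and scalings, blocks and leaving out each library were alternatives. The test of P against T in N was checked on simulated counts. These held no pairing of libraries and no shift shared by a replicate, so that check does not cover such patterns. A contrast averaged over the 4 treatments, with pooled list counts and a replicate block within each fraction, was added after the data were seen. With 2 libraries against 2, no permutation p under 0.05 is possible, so none is given.

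The members and the gene lists were chosen with earlier results of these data known. All 10 members were named in each comparison, and of each list up to 4 called genes with the largest change. The T and P libraries whose titles open with the same number were treated as 1 culture. Between the libraries of a culture the differences between replicates correlated over 0.1 in 1 of 4 treatments in MCF10A and 3 of 4 in MDA-MB-231. Sequences and positions came from GRCh38 with GENCODE, and lengths were those of the gene. No protein sequence was used here, and 0 columns were left without a sample. Confidence in single values rests on the spread between replicates, since no count of a member was low. For other genes with few counts, such as PECAM1, counting error adds to that spread.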

Additional observations from a re-analysis of the deposited data

Results flagged for a closer look

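The 2 mitochondrial rRNAs, which poly(A) selection should largely leave out and which the comparisons of mRNAs do not use, gave signal in every library. MT-RNR1 and MT-RNR2 together took a median of 0.585% of counts in the total libraries of MCF10A and 0.0384% in its polysomal libraries. In MDA-MB-231 the medians were 0.406% in T and 0.0287% in P.

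Nuclear pseudogene copies of mitochondrial genes also gave signal outside the protein-coding genes tested. For MT-ATP6 the copies held up to 11.8% of the counts on the gene and its copies in MCF10A and up to 13.8% in MDA-MB-231. With 2 libraries in a group, single libraries were not tested as standing apart.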

How the results depend on the processing

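In the 38 comparisons and the 2 averaged ones, members and named list genes called in the main fit or an alternative kept their direction. Direction was not compared for members called in neither fit, and a count of called members cannot reverse. Shares of all genes called were given above for some settings only. Elsewhere the counts of members below are not set against a background here, and they are not read as results about the members. In MCF10A the count of members called lower in P against T, 0 in each single treatment, moved most. In N it was 10 with DESeq2, 1 with no filter and 8 with a replicate block within each fraction. In H it was 8 with DESeq2, 3 with genes of every class, 2 without TMM, 3 with no filter, 3 with only the libraries compared and 7 with the block within fractions. In NPP it was 7 at an adjusted p under 0.10, 8 with DESeq2, 3 with genes of every class, 3 with library totals without the mitochondrial genome, 7 without TMM, 7 with no filter and 1 with either replicate block. It also rose without the first total replicate, in a fit that leaves 1 library in a group. In HPP it was 6 at an adjusted p under 0.10, 9 with DESeq2, 5 with genes of every class, 3 without the mitochondrial genome, 6 without TMM, 7 with no filter, 1 with the replicate block and 5 with the block within fractions.

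In MDA-MB-231 the counts in P against T in H and in NPP fell without the first polysomal replicate, in fits that leave 1 library in a group. Hypoxia in T gave 3 members with no filter. The share of all genes called in that setting is not given here, so its counts are not set against a background. HPP in T gave 3 with no filter, 4 with only the libraries compared (MT-CO2, MT-ND4, MT-ND5 and MT-ND6), 2 with the replicate block and 3 with the block within fractions, and HPP against H in P gave 1 with no filter. In MCF10A, HPP in P gave 1 with the block within fractions. The line difference in T, 3 members, was 5 at an adjusted p under 0.10, 7 with only the libraries compared, 6 with the replicate block and 5 with the block within fractions. It fell when some single libraries were left out.

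Pooled over the lists, nuclear subunits called lower in P under HPP ranged from 0 to 44 in MCF10A and 3 to 44 in MDA-MB-231 over all alternatives, and mtDNA expression factors from 2 to 18 and 1 to 20 in T and from 2 to 19 and 2 to 22 in P. A block for culture gave 0 members in each treatment of MCF10A and 10 in each of MDA-MB-231 in P against T. Differences between replicates correlated over 0.1 in 6 of 6 pairs of total groups in MCF10A (r = 0.283 to 0.778), so the numbers pair these libraries, and the block changed no member's call between treatments there. In the other sets not every pair passed, with 4 of 6 for T of MDA-MB-231, 3 of 6 for P of MCF10A and 4 of 6 for P of MDA-MB-231, and the numbers were not taken as pairing them. With 2 libraries a group the precision was set by replicates and not by depth, with standard errors of the members' treatment contrasts of 0.36 to 0.78 within a fraction of MCF10A and 0.51 to 1.09 for the interaction of treatment and fraction.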

Other observations

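The other 3 protein-coding genes of the mitochondrial genome, MT-ND3, MT-ND4L and MT-ATP8, have genes of 346, 297 and 207 bases. Averaged over the 4 treatments, MT-ATP8 was at a log2FC of −2.89 ± 0.28 (SE) in P against T in MCF10A and −2.98 ± 0.30 in MDA-MB-231. MT-ND3 was at −2.67 ± 0.38 and −3.12 ± 0.26, and MT-ND4L at −2.72 ± 0.23 and −2.92 ± 0.19. All 3 were called lower by edgeR in both lines (adjusted p = 0.0015 at most), and their values lay between those of MT-ND5 and MT-CO2.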
